A study of Drosophila melanogaster with 12 samples.

Results

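The comparison described here is that of parkin null with control dopaminergic neurons of the adult Drosophila melanogaster brain. It rests on 6 of the 12 arrays of the series, the 3 titled as mutant dopaminergic and the 3 titled as control dopaminergic. The other 6 arrays, 3 mutant and 3 control, are of cholinergic neurons from the same kind of animals. Each array holds the amplified RNA of 115 neurons, sorted by GFP fluorescence from a pool of at least 15 dissected and trypsin-treated brains and hybridised to an Affymetrix Drosophila 2.0 array. The mutant is named as a parkin null and the comparison animals only as control. The alleles, the strain, the age of the adults, the sex and the driver of GFP are not given in the sources used here. The same protocol of dissociation, sorting and amplification is given for mutants and controls. Nothing in the labels tells whether the arrays of a group stem from independently raised flies, and the p-values below measure only how these arrays spread.

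Parkin is an E3 ubiquitin ligase that acts with the kinase PINK1 at the surface of damaged mitochondria, where it marks outer membrane proteins for degradation and the organelle for removal by autophagy. Flies without parkin have abnormal mitochondria in flight muscle, and loss of some dopaminergic neurons with age has been described in them. In humans, loss of parkin causes an early-onset form of Parkinson's disease. Dopaminergic neurons make dopamine from tyrosine by tyrosine hydroxylase (ple) and dopa decarboxylase (Ddc), load it into vesicles by Vmat and take it up again by DAT. The question put by the study's title is which transcripts differ between neurons that are sensitive to the loss of parkin and neurons that are not. The transcript of parkin itself was not analysed here, so its loss in the mutants was not checked on these arrays. The probe set of Pink1 lay below the filter on dim probe sets and read between 4.76 and 5.39 on the 6 arrays.

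All values are log2 intensities as deposited, so a difference of 1 is a doubling. A probe set is the group of array probes that measures a transcript. Differences are mutant minus control from a limma fit to all 12 arrays, with their standard error, n = 3 mutant and 3 control arrays, and with p-values adjusted by the Benjamini-Hochberg method over the 12460 probe sets tested. The arrays are called controls 1 to 3 and mutants 1 to 3. Mutant 3 carries the title code F6, and each difference is given with and without it. An array's median over all probe sets, between 5.65 and 6.30 on the 6 arrays, serves below as the border of a dim signal and a log2 level of 8 as that of a bright one.

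Mutant 3 stood apart. Its median was 6.30 against 5.65 to 6.0 on the other 5 arrays, and the SD over tested probe sets was 1.34 against 1.71 to 1.91. It held 1617 probe sets at 8 or more, against 2100 on mutant 1, 2995 on mutant 2 and 2535 to 2764 on the controls. Of the 1146 probe sets that were bright on both other mutants, 503 (43.9%) read below its median. The same count gave 9 of 446 (2.02%) for mutant 1, 0 of 607 for mutant 2 and 5.92% to 7.41% for the controls. The sets for mutants 1 and 2 had to be bright on mutant 3 too, which limits this comparison. Mutant 2 was extreme in the other direction. Of 2263 probe sets below the median on both other mutants, 711 (31.4%) read 8 or more on mutant 2. That share was 8.77% for mutant 1, 0.70% for mutant 3 and 8.62% to 10.95% for the controls. The set for mutant 2 again depends on mutant 3. Mutants 1 and 2 also differed from each other more than any 2 controls did. The median absolute difference over tested probe sets was 0.94 between mutants 1 and 2, and 0.46 to 0.52 between controls.

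The markers ple and Fer2 fitted the label of dopaminergic neurons on the controls. Tyrosine hydroxylase (ple) read 10.39, 10.56 and 10.57 on controls 1 to 3, against 3.61 to 4.18 on the 3 cholinergic controls. Fer2, a transcription factor needed for a cluster of dopaminergic neurons, read 9.59 to 10.82 against 5.05 to 6.02. Over the 7 tested genes of dopamine synthesis and handling, the median level was 10.56, 9.59 and 11.33 on dopaminergic controls 1 to 3. It was 5.06, 6.02 and 8.85 on cholinergic controls 1 to 3, so members of this list were bright on cholinergic control 3 too. The pools were not free of other transcripts: choline acetyltransferase (ChAT), the enzyme that makes acetylcholine, read 9.28 to 11.39 on the dopaminergic controls and 9.72 to 11.21 on the cholinergic controls. Glutamate decarboxylase (Gad1), which makes GABA, read 9.76 and 11.18 on controls 2 and 3 and 2.63 on control 1.

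On the mutants the dopaminergic markers split by array. The level of ple was 10.94 on mutant 2, 7.01 on mutant 1 and 4.36 on mutant 3, a difference of -3.07 ± 1.19 (SE) with all arrays and -1.53 ± 0.89 without mutant 3. Only mutant 2 lay at the level of the controls. Fer2 read 6.84, 9.59 and 6.92 on mutants 1 to 3, for a difference of -2.46 ± 0.77, or -2.03 ± 0.84 without mutant 3. Ddc read 11.29 to 11.82 on the controls and 11.38, 11.19 and 6.32 on the mutants, so that its difference of -1.85 ± 1.22 became -0.20 ± 0.64. DAT read 9.58 to 11.33 on the controls and 9.77, 11.48 and 5.54 on the mutants. Its difference turned from -1.56 to 0.13 without mutant 3. The 2 tested probe sets of Vmat disagreed: the first read 12.72 to 12.82 on the controls and 12.71, 12.90 and 5.19 on the mutants, and the second 12.25 to 12.73 on the controls and 8.57, 11.99 and 7.71 on the mutants. The dopamine list, which holds the enzymes and carriers of dopamine and Fer2, had 7 tested genes, of which 6 were lower with all arrays (median difference -1.85) and 3 without mutant 3 (median 0.04). In pools of a fixed number of cells, fewer cells of a type and less of the transcript per cell cannot be told apart. On mutant 3, neither can be told apart from the loss of bright signal over the whole array. There 43.9% of the probe sets bright on both other mutants read below the array median.

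The pan-neuronal genes followed the arrays too. The RNA-binding protein elav read 10.20 to 11.55 on the controls and 11.49, 11.89 and 6.27 on the mutants, for a difference of -0.88 ± 1.32 that became 0.93 ± 0.71 without mutant 3. The synaptic vesicle protein nSyb was bright on every array, at 10.65 to 11.61, with differences of 0.10 ± 0.56 and 0.38 ± 0.38. Over 13 pan-neuronal markers the median level was 10.26 to 10.54 on the controls, 9.64 on mutant 1, 10.42 on mutant 2 and 5.59 on mutant 3.

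**Figure D1:**
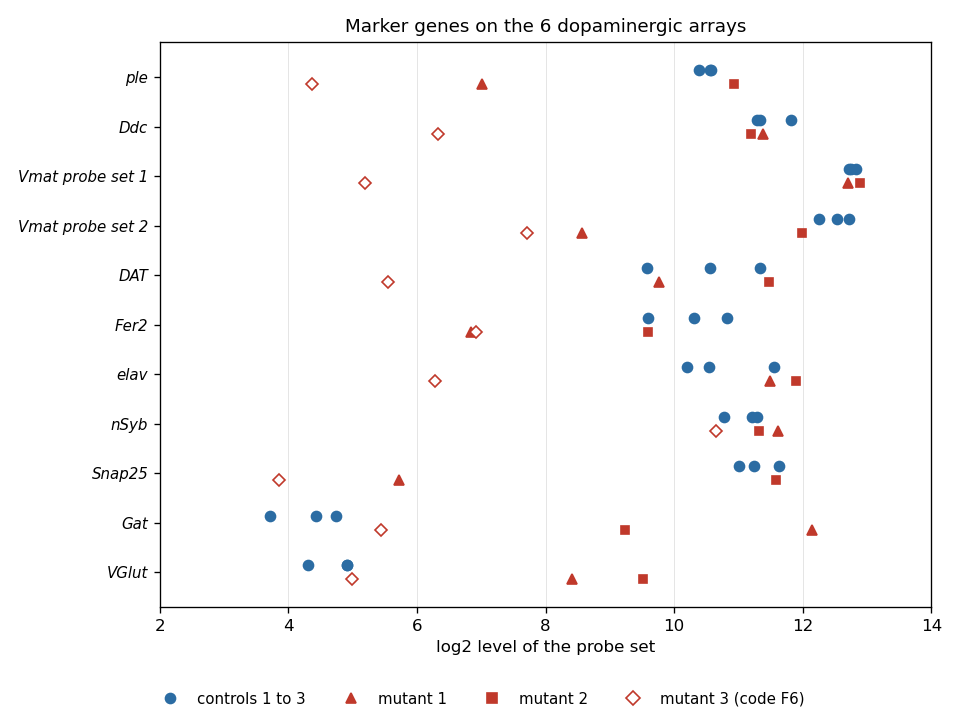
Log2 levels (horizontal axis) of dopaminergic and pan-neuronal markers, of VGlut and of Gat (also on the glial list) on each dopaminergic array, with controls as filled circles and mutants 1, 2 and 3 as a triangle, a square and an open diamond. Mutant 3 was low for nearly all bright markers but not for nSyb, mutant 1 was low for ple, Fer2, Snap25 and the second Vmat probe set, and Gat and VGlut were high on mutants 1 and 2.

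No probe set passed an adjusted p of 0.05 between mutant and control dopaminergic neurons in the limma fit, with or without mutant 3. The share called was 0.00% of 12460 in each fit. The smallest adjusted p was 0.330 with all arrays and 0.051 without mutant 3. The count of calls depended on single arrays: it was 74 (70 lower and 4 higher) when mutant 2 was left out in place of mutant 3, 2 without control 3 and 1, CG12868 with an adjusted p of 0.0096, without control 1. Among the genes named below, ple, Fer2, Hs3st-A, Yeti, Vha26, Lamp1, Snap25, Syn, Tomosyn, Ran, onecut and the second Vmat probe set were called without mutant 2, that is, between mutants 1 and 3 and the controls. At an unadjusted p under 0.05, limma called 560 probe sets (4.49%) with all arrays, 360 lower (2.89%) and 200 higher (1.61%). Without mutant 3 it called 487 (3.91%), and the balance turned, with 194 lower (1.56%) and 293 higher (2.35%). The median difference over all tested probe sets was 0.18 with all arrays, where 40.3% were lower, and -0.02 without mutant 3, where 52% were lower. The median standard error was 0.78 and 0.84. A rank-based comparison of 3 against 3 arrays cannot go below an exact permutation p of 0.1, so the genes that lead each direction below were taken from those whose mutant and control values do not overlap, in the order of p. Further genes are named as markers or as list members with the smallest p, whether or not their values overlap, and none of the genes passed the test in either fit. The mutants lay below every control for 361 probe sets (2.90%) and above every control for 760 (6.10%). Without mutant 3 these counts were 696 (5.59%) and 1096 (8.80%). With fewer arrays, groups separate more often by order alone, so the larger counts without mutant 3 do not show more change. With 3 against 3 arrays in random order, values separate in 1 direction or the other with a probability of 0.1. The counts with all arrays are therefore not read as a sign of change either.

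Of the 10 genes that led the lower side, CG12868, CG31522, CG17684, Mob2 and CG7069 were bright on every control and below the array median on all 3 mutants. The uncharacterised gene CG12868 read 8.08, 11.47 and 10.33 on the controls and 5.81, 4.97 and 5.35 on the mutants, for a difference of -4.58 ± 0.72 (limma adjusted p = 0.330) and -4.57 ± 0.84 without mutant 3 (adjusted p = 0.409). CG31522, of the family of enzymes that elongate fatty acids, read 9.22, 9.15 and 8.67 on the controls and 4.19, 3.81 and 4.41 on the mutants. The difference was -4.88 ± 0.79 with all arrays and -5.01 ± 0.95 without mutant 3. For both genes the 3 mutants lay closer to each other than to the nearest control, and mutant 3 did not stand apart from the other mutants. The other mutants were dim for both genes too, so the loss of bright signal on mutant 3 could not show there. Like all leading genes, both were picked by non-overlap and small p, which favours such values. Another tested probe set of CG31522 differed by 0.41, or 0.08 without mutant 3, so the 2 do not agree.

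CG7069, of the pyruvate kinase family, read 10.92, 9.37 and 11.36 on the controls and 5.16, 4.71 and 5.57 on the mutants (difference -5.4 ± 1.24, without mutant 3 -5.61 ± 1.46). Mob2, an adaptor of NDR-family kinases, read 9.52, 11.25 and 8.56 on the controls and 3.87, 3.64 and 4.51 on the mutants (-5.77 ± 1.31, without mutant 3 -6.02 ± 1.56). Its second probe set was also lower on every mutant, at 6.48, 9.19 and 7.99 on the controls and 6.23, 6.0 and 6.28 on the mutants. Mob2 was thus lower by both of its probe sets, though the difference was -1.71 in the second, or -1.77 without mutant 3. CG17684 read 10.29, 9.44 and 9.10 on the controls and 4.17, 3.35 and 4.12 on the mutants in 1 probe set, and differed by 1.02 in the other direction in the second tested one; the differences without mutant 3 were -5.85 and 0.98. The mitochondrial ferredoxin Fdx1, an electron carrier, read 10.91, 10.55 and 9.68 on the controls and 7.54, 6.52 and 6.74 on the mutants. Its difference was -3.45 ± 0.81, and -3.35 ± 0.91 without mutant 3. The octopamine and tyramine receptor Oct-TyrR read 6.66, 8.31 and 8.84 on the controls and 4.58, 5.38 and 5.6 on the mutants, a difference of -2.74 ± 0.55 and of -2.95 ± 0.61 without mutant 3. Its levels were moderate to bright on the controls and below the array median on every mutant.

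The gene trus, a member of the PDCD2 family, read 10.77, 10.27 and 9.45 on the controls and 6.02, 6.38 and 6.59 on the mutants. The heparan sulfate 3-O-sulfotransferase Hs3st-A read 8.77, 9.81 and 9.24 on the controls and 4.16, 7.09 and 3.86 on the mutants, so mutant 2 lay nearest to the controls. Polr2M read 8.0 to 9.14 on the controls and 5.93 to 6.88 on the mutants. The corresponding differences were -3.83, -4.23 and -2.01, and without mutant 3 -3.96, -3.65 and -2.18. Among the leading genes without mutant 3, the chromatin protein gene Yeti and the Acinus gene Acn also had non-overlapping values. Yeti read 11.98, 11.21 and 10.57 on the controls and 7.27, 9.50 and 5.72 on the mutants. Acn read 11.62, 11.25 and 10.13 on the controls and 7.33, 8.27 and 8.12 on the mutants, while its second tested probe set overlapped between the groups.

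The genes that led the higher side lay below or near the array median on the controls and mostly at moderate levels on the mutants, with smaller differences. The tetraspanin Tsp42El read 5.18, 5.23 and 5.41 on the controls and 7.15, 7.06 and 7.30 on the mutants, for a difference of 1.89 ± 0.40 (limma adjusted p = 0.779) and 1.83 ± 0.43 without mutant 3. CHMP2B, a subunit of the ESCRT-III complex that buds vesicles into endosomes, read 6.72, 6.23 and 6.45 on the controls and 8.12, 8.28 and 7.72 on the mutants (1.57 ± 0.43, without mutant 3 1.73 ± 0.44). The spread within each group was narrow for both. The kinase gene Cdc2rk read 5.22 to 5.45 on the controls and 7.0, 9.12 and 6.70 on the mutants. CG31301 read 4.91 to 5.27 on the controls and 10.44, 7.16 and 6.58 on the mutants. The remaining leaders on this side were eIF3g2, PPYR1, the zinc finger gene jing, CG8204, CG14074 and gek, with differences of 1.89, 1.64, 1.75, 1.55, 3.16 and 4.47, and of 1.70, 1.46, 1.64, 1.72, 3.83 and 6.04 without mutant 3. A second probe set of jing differed by 0.21, or 0.04 without mutant 3.

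**Figure D2:**
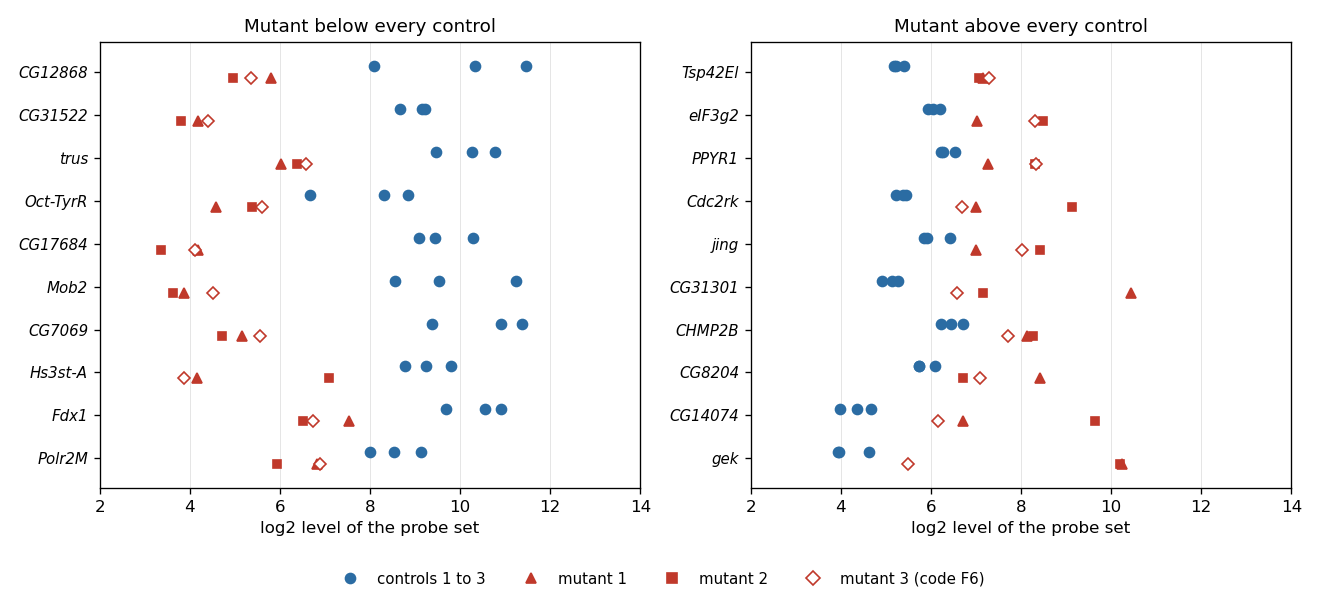
Log2 levels (horizontal axis) on each array of the 10 genes with the smallest p among those whose mutants all lay below the controls (left) and above them (right); symbols as in the plot of marker genes. On the left most controls lie above 8 and most mutants below 7, and on the right the mutants of most genes lie between 6 and 9.

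Without mutant 3 the smallest p-values belonged to genes that were higher on both remaining mutants than on any control. CG31633 read 4.31, 4.04 and 4.62 on the controls, 11.22 and 11.33 on mutants 1 and 2, and 4.69 on mutant 3. Its difference was 6.95 ± 0.77 without mutant 3 (limma adjusted p = 0.051) and 4.75 ± 1.48 with it (adjusted p = 0.835). CG12535 read 6.64, 6.17 and 5.67 on the controls and 10.20, 10.41 and 6.20 on the mutants, and its difference was 4.14 ± 0.48 without mutant 3 (limma adjusted p = 0.051) and 2.77 ± 0.93 with it. In both genes mutant 3 lay at the level of the controls. A second probe set of CG12535 read 5.10 to 5.30 on the controls and 9.46, 6.93 and 6.17 on the mutants. The Cdc42 effector kinase gek read 3.96, 3.94 and 4.63 on the controls and 10.24, 10.20 and 5.49 on the mutants (6.04 ± 1.03 without mutant 3). CG2909, CG32259, CG34353, Mink, the cytochrome P450 gene Cyp4ac2 and the mitochondrial carrier gene SCaMC followed with differences of 4.63, 4.15, 4.60, 2.55, 4.49 and 3.96 without mutant 3, and of 3.25, 2.90, 3.32, 1.92, 2.61 and 2.23 with it. For CG34353 this is the probe set that led of 8 tested.

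How far the 3 mutants shared their differences was counted over the probe sets that were uniform on the controls. Of 1075 probe sets at 8 or more on all 3 controls, 572 were above the array median on every mutant, 354 were below it on mutant 3 alone, 115 on mutants 1 and 3, 22 on mutant 1 alone, 1 on mutant 2 alone, 3 on mutants 2 and 3, and 8 on all 3. Those 8, which the count itself picked after the values were seen, were CG12868, CG31522, CG17684, Mob2, CG7069, CG32243, the calcium sensor neurocalcin (Nca) and l(2)SH0834. Nca read 9.71, 8.41 and 9.94 on the controls and 5.01, 4.44 and 5.5 on the mutants. CG32243 read 10.40, 11.54 and 9.36 on the controls and 5.56, 3.74 and 5.08 on the mutants. Losses that mutant 1 had, mutant 3 mostly had too, and mutant 2 nearly kept the bright set of the controls.

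In the other direction, 1207 probe sets were below the median on all 3 controls. Of these, 170 were at 8 or more on mutant 2 alone, 57 on mutant 1 alone, 7 on mutant 3 alone, 20 on mutants 1 and 2, 1 on mutants 2 and 3, and 0 on all 3. The 20 include gek, CG31633, the GABA transporter Gat, the vesicular glutamate transporter VGlut, the fatty acid binding protein fabp, the histone acetyltransferase Hat1 and an AMP deaminase (AMPdeam), again named by the count after the values were seen. Hat1 read 2.74, 2.56 and 2.68 on the controls and 10.98, 9.23 and 2.65 on the mutants. Its other probe set was not tested. No gene was dim on the controls and bright on every mutant by these borders.

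**Figure D3:**
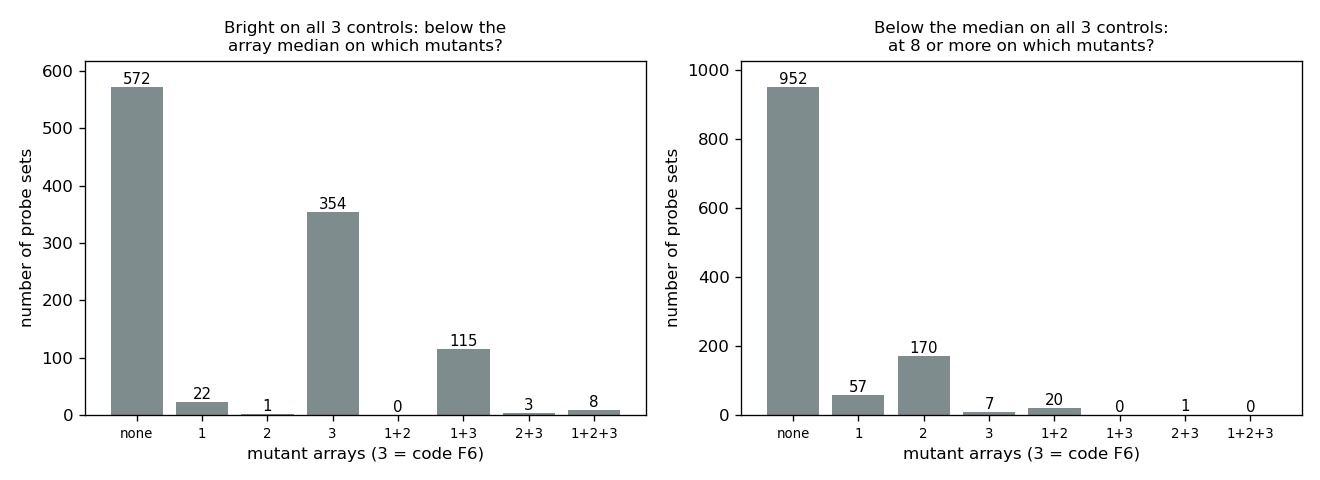
Number of probe sets (vertical axes) by the set of mutant arrays on which they differed from uniform controls: left, probe sets at 8 or more on all controls by the mutants on which they read below the array median, right, probe sets below the median on all controls by the mutants on which they read 8 or more. The tallest bars after "none" are mutant 3 alone on the left (354) and mutant 2 alone on the right (170).

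The title codes give a pair of comparisons that share no array, mutant 1 minus control 2 (both with the code letter D) and mutant 2 minus control 3 (both E). What the letters stand for is not given. A difference of 2 or more was found for 2465 probe sets in the D pair and 2366 in the E pair, and 838 had it in both, 217 lower in both, 162 higher in both and 459 with opposite signs. The same sign was thus seen in 45.2% of the 838. At a difference of 4 or more, 159 probe sets were in both pairs, 45 lower, 34 higher and 80 opposite. At each size counted the sign was the same for fewer than 50% of the shared probe sets, with 47.3% at a size of 1 and 49.7% at 4.

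**Figure D4:**
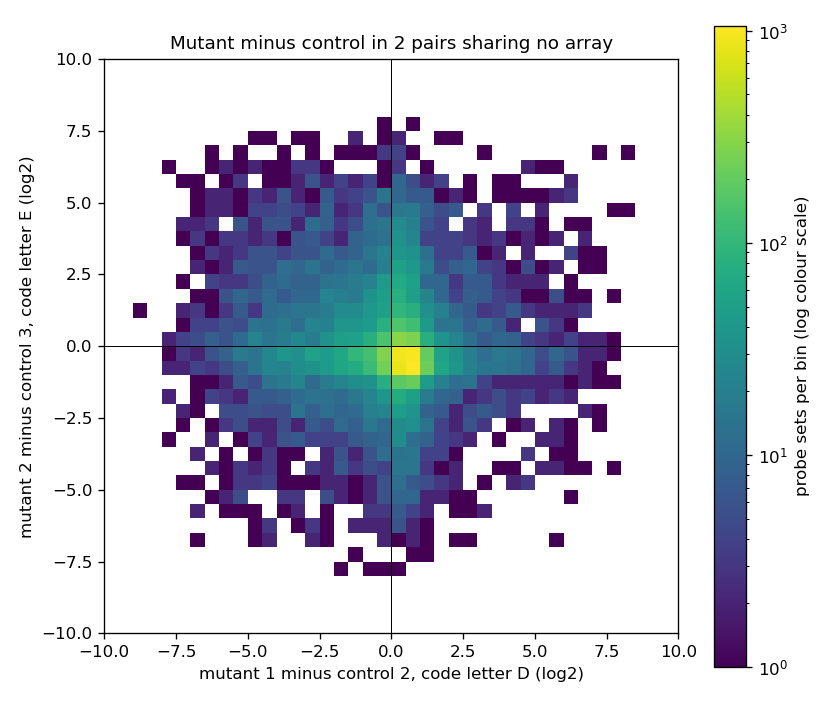
Counts of tested probe sets (log colour scale) by the log2 difference in the D pair (horizontal axis) and in the E pair (vertical axis), in squares 0.5 wide. Probe sets with large differences spread along both axes and over all 4 combinations of sign.

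Genes were then grouped by role, with 1 probe set per gene, the one of highest mean level over the 12 arrays. No member of the 43 lists passed an adjusted p of 0.05 in either limma fit, so the groups are described by counts and medians beside those of all 7612 genes tested. Over all genes, 42.0% were lower with a median of 0.17 with all arrays, and 52% were lower with a median of -0.02 without mutant 3. Over all genes, 3.11% lay below every control and 6.12% above every control, or 5.87% and 9.05% without mutant 3.

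Among the genes of the PINK1 and parkin pathway and of mitochondrial dynamics, 15 of 21 were lower with all arrays (median -1.08), and 10 of 21 without mutant 3 (median 0.11). Milton (milt), the adaptor that links mitochondria to kinesin, read 7.39, 9.62 and 8.44 on the controls, 11.16 and 12.13 on mutants 1 and 2, and 6.49 on mutant 3. Its difference was 1.44 ± 1.30 with all arrays and 3.16 ± 0.79 without mutant 3. Its other tested probe set did not separate the groups, with differences of -0.33 and 0.30. Mul1, a ubiquitin ligase of the outer mitochondrial membrane, read 5.89 to 6.33 on the controls and 7.03, 6.47 and 7.53 on the mutants (0.86 ± 0.46, without mutant 3 0.60 ± 0.47). The outer membrane channel porin read 10.07 to 11.11 on the controls, 11.12 on mutant 2, and 6.88 and 7.96 on mutants 1 and 3.

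The respiratory chain showed no common direction. Of 25 complex I genes, 17 were higher (median 0.28) with all arrays and 16 without mutant 3 (median 0.11), while 19 of 31 genes of complexes II to V were lower in each case (medians -0.36 and -0.19). The complex I subunit ND-B16.6 read 10.01, 8.72 and 9.62 on the controls and 7.88, 7.75 and 7.99 on the mutants (-1.57 ± 0.65, without mutant 3 -1.63 ± 0.73). ND-B14.5B of the same complex read 8.10, 9.76 and 10.88 on the controls and 7.57, 7.25 and 7.95 on the mutants. These were the complex I genes with all mutants below all controls, 2 of 25 (8%), against 3.11% of all genes. Without mutant 3, 4 of 25 (16%) lay below every control, against 5.87% of all genes. Above every control lay 0 of 25, or 2 of 25 (8%) without mutant 3, against 6.12% and 9.05% of all genes. In the other complexes the ATP synthase subunit ATPsynF read 8.12, 8.28 and 7.32 on the controls and 5.68, 6.07 and 6.69 on the mutants (-1.76 ± 0.62, without mutant 3 -2.03 ± 0.68). The cytochrome c oxidase subunit COX5A read 8.32, 9.92 and 10.41 on the controls and 7.14, 7.23 and 8.76 on the mutants (-1.84 ± 0.83, without mutant 3 -2.37 ± 0.87), and the subunit COX7A was at the level of the controls on mutant 2, at 8.61. The complex II subunit SdhC was higher on every mutant, at 5.5, 8.76 and 6.66 against 4.86 to 5.46.

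In the citric acid cycle, 15 of 24 genes were lower with all arrays (median -0.12) and 14 without mutant 3 (median -0.20). Scsalpha1, a subunit of succinyl-CoA synthetase, read 7.87, 10.57 and 8.39 on the controls and 6.13, 6.04 and 6.36 on the mutants (-2.77 ± 0.74, without mutant 3 -2.86 ± 0.86). The isocitrate dehydrogenase subunit Idh3g read 8.71, 7.40 and 8.34 on the controls and 6.59, 5.76 and 6.26 on the mutants (-1.95 ± 0.80, without mutant 3 -1.98 ± 0.94). For both genes the mutants lay closer to each other than the controls did. Among the 14 iron and iron-sulfur genes, 6 were lower in each fit (medians 0.20 and 0.04). The ferritin light chain Fer2LCH, part of the iron storage shell, read 11.14, 10.79 and 9.99 on the controls and 5.32, 9.06 and 5.54 on the mutants (-4.0 ± 1.17, without mutant 3 -3.45 ± 1.29). Glycolytic genes were balanced, with 7 of 14 lower (median -0.01), or 4 of 14 without mutant 3 (median 0.16).

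Of the mitochondrial ribosomal proteins, 8 of 58 (13.8%) lay above every control, or 10 of 58 (17%) without mutant 3, against 6.12% and 9.05% of all genes. Below every control lay 1 of 58 (1.72%), or 3 of 58 (5.17%) without mutant 3, against 3.11% and 5.87% of all genes. In all, 43 of 58 were higher with all arrays (median 0.48) and 35 of 58 without mutant 3 (median 0.15). The list was dim, with a median level of 5.87 to 6.13 on the controls and 6.46, 5.99 and 6.98 on the mutants; the array median was itself highest on mutant 3 and lowest on mutant 2. mRpS11 read 5.84, 5.76 and 5.32 on the controls and 11.20, 9.33 and 6.54 on the mutants (3.38 ± 1.24, without mutant 3 4.62 ± 1.17), and a second probe set of it was also higher on every mutant. mRpS24 read 5.09 to 5.85 against 6.20 to 7.34 (1.27 ± 0.42, without mutant 3 1.19 ± 0.45), and mRpS16 5.19 to 5.71 against 6.11 to 8.58 (1.79 ± 0.75, without mutant 3 1.94 ± 0.86). Among genes of mitochondrial import, chaperones and proteases, 14 of 25 were lower (median -0.14), or 11 of 25 without mutant 3 (median 0.13). The chaperonin Hsp60A read 12.42, 12.97 and 12.64 on the controls and 11.67, 11.45 and 9.03 on the mutants. The import receptor Tom70 read 8.63, 10.67 and 11.70 on the controls and 6.70, 8.39 and 7.20 on the mutants.

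The lists of cytosolic translation held members on both sides. Cytosolic ribosomal proteins were lower for 25 of 35 genes (median -0.76) with all arrays and for 19 of 35 (median -0.08) without mutant 3. RpL36A read 8.10 to 9.18 on the controls, 11.17 and 10.12 on mutants 1 and 2 and 8.2 on mutant 3. Among 33 translation initiation and elongation factors, 18 were lower (median -0.07), or 19 without mutant 3 (median -0.10), and 4 of 33 (12.1%) lay above every control in each case, against 6.12% and 9.05% of all genes. Below every control lay 0 of 33 in each case, against 3.11% and 5.87% of all genes. The initiation factor eIF5B, which joins the ribosomal subunits, read 5.29, 5.36 and 5.80 on the controls and 11.65, 8.01 and 6.19 on the mutants (3.13 ± 1.23, without mutant 3 4.35 ± 1.18). On the other side, eIF4B read 10.46, 12.36 and 11.76 on the controls, 12.05 on mutant 2, and 6.14 and 5.75 on mutants 1 and 3 (-3.55 ± 1.88, without mutant 3 -2.43 ± 2.04), and its other tested probe sets differed by -2.08, 1.30 and -2.26, or -1.21, 2.83 and -0.96 without mutant 3.

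In protein quality control, 19 of 25 heat shock and chaperone genes were lower (median -1.35), and 18 of 25 without mutant 3 (median -0.32). The small heat shock proteins Hsp26 and Hsp27 were bright on the controls, at 12.72 to 13.01 and 11.83 to 12.56. On the mutants Hsp26 read 12.58, 11.78 and 8.37 and Hsp27 11.99, 9.72 and 7.91, for differences of -1.94 ± 0.89 and -2.28 ± 0.88, or -0.67 ± 0.31 and -1.30 ± 0.58 without mutant 3. Another small heat shock protein, l(2)efl, lay in the opposite direction. Its tested probe set read 6.06 to 6.33 on the controls and 6.56, 8.95 and 6.54 on the mutants, and a second, below the filter, read 3.27, 3.79 and 3.20 on the controls and 11.19, 8.75 and 5.02 on the mutants. The J domain co-chaperone jdp read 8.58, 10.63 and 12.00 on the controls and 6.36, 7.38 and 7.87 on the mutants in the probe set named (-3.20 ± 0.90, without mutant 3 -3.53 ± 1.00), and its other tested probe sets overlapped between the groups.

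Proteasome genes were lower in 12 of 22 cases in both fits (medians -0.08 and -0.43). Above every control lay 0 of 22, or 1 of 22 (4.5%) without mutant 3, against 6.12% and 9.05% of all genes. Below every control lay 3 of 22 (13.6%) in each case, against 3.11% and 5.87% of all genes. Among these were Rpn5, at 6.81, 11.95 and 9.05 on the controls and 5.87 to 6.49 on the mutants, and the ATPase Rpt5, at 7.38, 9.99 and 5.01 against 4.56 to 4.71. The controls themselves spanned several log2 units for both. Among endoplasmic reticulum and secretory genes, 11 of 22 were lower (median 0.03), or 8 of 22 without mutant 3 (median 0.39). The ubiquitin ligase sip3, of the pathway that clears misfolded proteins from that organelle, read 5.79 to 6.09 on the controls and 6.28, 8.30 and 8.03 on the mutants (1.56 ± 0.53, without mutant 3 1.31 ± 0.57). The vesicle coat subunit Sec24CD read 4.90 to 5.33 against 5.58 to 7.92 (1.58 ± 0.62, without mutant 3 1.57 ± 0.71).

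Core autophagy genes were evenly split, with 12 of 25 lower (median 0.02), or 15 of 25 without mutant 3 (median -0.12). The kinase Atg1, which starts autophagy, read 8.68, 10.95 and 7.06 on the controls and 4.92, 6.58 and 5.83 on the mutants (-3.12 ± 1.06, without mutant 3 -3.14 ± 1.25). Its partner Atg17 read 6.47, 8.88 and 7.67 on the controls and 5.43, 5.65 and 5.51 on the mutants (-2.14 ± 0.84, without mutant 3 -2.13 ± 1.00). These 2 of 25 (8%) were the autophagy genes with all mutants below all controls, with or without mutant 3. Of all genes this share was 3.11% and 5.87%. Above every control lay 0 of 25 autophagy genes, or 1 of 25 (4%) without mutant 3, against 6.12% and 9.05% of all genes. Lysosome and V-ATPase genes were lower for 17 of 27 (median -0.24), or 14 of 27 without mutant 3 (median -0.01). The lysosomal membrane protein Lamp1 read 11.30 to 11.68 on the controls, 11.79 on mutant 2, and 5.54 and 4.80 on mutants 1 and 3. The proton pump subunit Vha26 had the same pattern, with 11.61 to 12.49 on the controls, 12.06 on mutant 2, and 6.16 and 5.69 on mutants 1 and 3. The accessory subunit VhaAC45 was low on all mutants, at 6.54, 6.89 and 5.24 against 6.91, 10.24 and 10.40 on the controls. In the endosomal list 17 of 27 were lower (median -0.32), or 19 of 27 without mutant 3 (median -0.32). The sorting nexin Snx6 read 4.28 to 4.46 on the controls and 4.75, 9.7 and 5.4 on the mutants, with the highest value on mutant 2 (2.22 ± 1.14, without mutant 3 2.82 ± 1.27).

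Among stress response genes, oxidative stress and glutathione genes were lower in 8 of 24 cases (median 0.30), or 7 of 24 without mutant 3 (median 0.20). The glutathione transferase GstZ2 read 5.81 to 6.22 on the controls and 11.79, 7.20 and 7.96 on the mutants (2.95 ± 1.31, without mutant 3 3.46 ± 1.51). The glutathione synthesis subunit Gclm read 10.34, 7.98 and 5.22 on the controls and 4.71, 3.87 and 4.78 on the mutants (-3.39 ± 1.67, without mutant 3 -3.55 ± 2.00). The small Maf protein maf-S, a partner of the oxidative stress factor CncC, read 10.21, 9.49 and 8.69 on the controls and 6.74, 8.29 and 6.53 on the mutants. The controls of Gclm spanned more than the distance from its lowest control to the mutants. In the list of the ATF4 response and one-carbon genes, 5 of 15 were lower in each fit (medians 0.22 and 0.08). CG6287, a phosphoglycerate dehydrogenase of serine synthesis, read 6.80 to 7.25 on the controls and 8.06, 9.82 and 8.42 on the mutants (1.73 ± 0.70, without mutant 3 1.91 ± 0.79). Innate immune genes were lower in 5 of 16 cases in each fit (medians 0.45 and 0.26).

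Apoptosis and JNK pathway genes were lower for 16 of 21 (median -0.78), or 12 of 21 without mutant 3 (median -0.30). The JNK gene bsk read 9.42, 9.71 and 11.27 on the controls and 5.97, 8.63 and 5.57 on the mutants (-3.41 ± 0.97, without mutant 3 -2.83 ± 1.01). Its other tested probe set overlapped between the groups. Upstream in the same pathway, the axon injury kinase wnd was on the opposite side, at 6.05, 6.16 and 5.64 on the controls and 9.78, 11.35 and 5.84 on the mutants (3.04 ± 1.32, without mutant 3 4.61 ± 1.09). The 12 genes of neuronal activity and dissociation were lower in 10 cases (median -1.71), or 8 without mutant 3 (median -0.22).

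The neuronal lists had some of the lowest medians. Synaptic vesicle release genes were lower for 28 of 37 (median -0.98), and for 23 of 37 without mutant 3 (median -0.44), and axon transport and cytoskeleton genes for 21 of 27 (median -0.75) and 18 of 27 (median -0.44). The 2 code pairs did not share this shift: the median synaptic difference was -1.15 in the D pair and 0.46 in the E pair, and that of axon transport was -1.09 and -0.02. The SNARE protein Snap25 read 11.01 to 11.64 on the controls, 5.72, 11.58 and 3.85 on the mutants, and synapsin (Syn) read 9.55 to 10.02 on the controls and 2.92, 9.82 and 4.13 on the mutants. Tomosyn, an inhibitor of SNARE assembly, read 11.46 to 11.65 on the controls and 7.48, 11.51 and 7.48 on the mutants. All of these were at the level of the controls on mutant 2 and low on mutants 1 and 3. Synaptogyrin (Syngr) read 10.79, 9.65 and 11.65 on the controls and 6.02, 9.48 and 5.29 on the mutants. The clathrin adaptor subunit AP-2alpha was higher on mutants 1 and 2 only, at 11.30 and 9.87 against 5.49 to 8.68 on the controls and 4.57 on mutant 3. Among cytoskeletal genes, stathmin (stai) read 5.69, 8.0 and 8.69 on the controls and 4.56, 6.60 and 4.57 on the mutants, and profilin (chic) 10.97 to 12.16 against 8.41 to 11.53.

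Among voltage-gated channel genes 25 of 34 were lower (median -0.43), or 19 of 34 without mutant 3 (median -0.07). The L-type calcium channel subunit Ca-alpha1D read 8.02, 11.49 and 11.63 on the controls and 5.6, 7.84 and 6.82 on the mutants (-3.63 ± 1.14, without mutant 3 -3.66 ± 1.32). Of the auxiliary subunits of the sodium channel, Teh2 read 8.39, 10.19 and 7.35 on the controls and 6.71, 5.78 and 6.03 on the mutants (-2.47 ± 0.81, without mutant 3 -2.40 ± 0.96), and tipE 6.75 to 7.39 against 5.10 to 6.13 (-1.41 ± 0.72, without mutant 3 -1.63 ± 0.83). All 3 channel genes had every mutant below every control, which held for 3 of 34 (8.82%) in the list, against 3.11% of all genes. Without mutant 3 it held for 4 of 34 (11.8%), against 5.87% of all genes. Above every control lay 0 of 34, or 3 of 34 (8.82%) without mutant 3, against 6.12% and 9.05% of all genes. Transmitter receptors were lower for 24 of 38 (median -0.60), or 21 of 38 without mutant 3 (median -0.13). The nicotinic receptor subunit nAChRbeta1 read 10.51, 10.51 and 11.73 on the controls and 7.33, 9.34 and 5.06 on the mutants (-3.67 ± 1.04, without mutant 3 -2.58 ± 0.81), while its second probe set overlapped between the groups. The GABA receptor subunit Lcch3 read 9.11, 6.83 and 9.97 on the controls and 4.18, 6.86 and 3.79 on the mutants.

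Neuropeptides and their processing genes were lower in 9 of 27 cases (median 0.32), or 10 of 27 without mutant 3 (median 0.10). Peptide genes were not uniform on the controls. Allatostatin C (AstC) read 4.34, 10.49 and 9.88 on the controls and 4.38 to 4.92 on the mutants, and the peptide gene spab 6.21, 9.24 and 9.38 on the controls and 3.82, 6.83 and 4.25 on the mutants. Clock genes were lower in 8 of 15 cases in each fit (medians -0.32 and -0.09). The clock gene tim was bright on mutant 2 alone, at 11.60 against 4.74 to 5.63 on the other 5 arrays. The clock output regulator Pdp1 read 4.80, 8.89 and 6.31 on the controls and 3.17, 5.88 and 2.77 on the mutants. The collection time of the brains is not given.

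In the nucleus, splicing and RNA processing genes were split, with 15 of 32 lower (median 0.03), or 16 of 32 without mutant 3 (median 0.03), and chromatin regulators were lower for 21 of 31 (median -0.47), or 17 of 31 without mutant 3 (median -0.17). The splicing factor subunit Sf3b3 read 6.33, 9.17 and 10.91 on the controls and 4.60 to 5.13 on the mutants (-3.87 ± 1.54, without mutant 3 -3.96 ± 1.85). The histone deacetylase HDAC1 read 6.15 to 6.46 on the controls and 7.35, 7.96 and 7.03 on the mutants (1.18 ± 0.37, without mutant 3 1.39 ± 0.37). Nuclear pore and transport genes were lower for 19 of 29 (median -0.22), or 18 of 29 without mutant 3 (median -0.34). The transport GTPase Ran read 10.88, 12.08 and 11.94 on the controls and 7.14, 10.07 and 5.24 on the mutants (-4.15 ± 1.1, without mutant 3 -3.03 ± 0.92). The pore subunit Nup107 read 5.31 to 6.08 on the controls and 6.08, 8.15 and 7.35 on the mutants. Lipid and peroxisome genes were lower for 16 of 29 (median -0.09), or 17 of 29 without mutant 3 (median -0.31), and aminoacyl-tRNA synthetases for 9 of 25 (median 0.34), or 11 of 25 without mutant 3 (median 0.04).

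**Figure D5:**
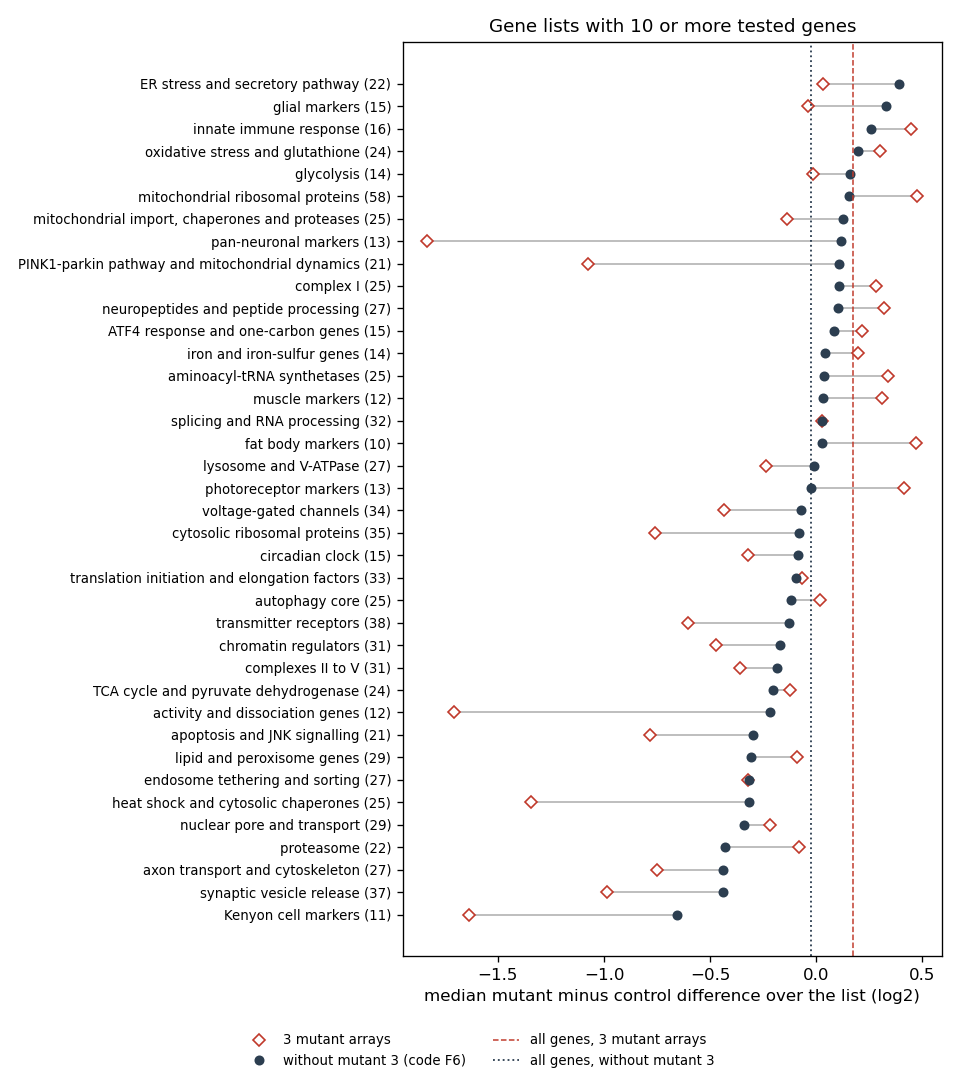
Median mutant minus control difference (horizontal axis, log2) over the tested genes of each list with 10 or more of them, with the number in brackets; open diamonds use all 3 mutant arrays, filled circles leave out mutant 3, and the vertical lines mark the median over all genes. Leaving out mutant 3 moved the neuronal markers from -1.83 to 0.12 and the PINK1 and parkin list from -1.08 to 0.11. It left the endosomal list at -0.32, while the median over all genes moved from 0.17 to -0.02.

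Markers of other cells and transmitters varied between arrays within both groups. Of the 5 tested GABA and glutamate markers, 4 were higher in each fit (medians 0.22 and 1.01). Among these 4, Gat and Gs2 also stood on the list of glial markers, so the count does not speak for GABA or glutamate neurons alone. Gat read 4.74, 3.71 and 4.43 on the controls and 12.15, 9.24 and 5.43 on the mutants (4.65 ± 1.84, limma adjusted p = 0.935, without mutant 3 6.4 ± 1.81, adjusted p = 0.928). VGlut read 4.90, 4.90 and 4.31 on the controls and 8.42, 9.52 and 4.99 on the mutants (2.94 ± 1.51, without mutant 3 4.26 ± 1.54), and differed by 0.04 in a second probe set, or 0.02 without mutant 3. Gad1, which makes GABA from glutamate, read 2.63, 9.76 and 11.18 on the controls and 3.71, 9.60 and 3.59 on the mutants, with a difference of -2.22 ± 2.15, or -1.20 ± 2.47 without mutant 3. The vesicular GABA transporter VGAT read 6.48, 10.14 and 5.68 on the controls and 6.22, 10.42 and 6.33 on the mutants (0.22 ± 1.64, without mutant 3 0.88 ± 1.90). Among the 15 tested glial markers, 8 were lower with all arrays (median -0.04) and 7 without mutant 3 (median 0.33), and the median level was 5.5 to 7.03 on the controls and 5.53 to 6.95 on the mutants. The glial transcription factor repo lay below the filter and read 2.49 to 2.94 on 5 of the arrays and 7.39 on mutant 2. The part of other cells in the differences was not tested.

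Of the 4 cholinergic markers all were lower with all arrays (median -1.97) and 2 without mutant 3 (median -0.57); acetylcholinesterase (Ace) read 8.55 to 10.11 on the controls, 9.19 on mutant 2, and 3.54 and 4.13 on mutants 1 and 3. In the 11 Kenyon cell markers, 8 were lower in each fit (medians -1.64 and -0.66). Onecut, a neuronal transcription factor of the pan-neuronal list, read 8.18 to 9.25 on the controls and 3.55, 7.76 and 2.93 on the mutants. Photoreceptor markers were lower in 3 of 13 cases (median 0.42), or 7 of 13 without mutant 3 (median -0.02); among them chp read 9.60, 10.66 and 10.58 on the controls and 5.09, 7.93 and 6.16 on the mutants. Hemocyte markers were lower in 1 of 6 and 3 of 6 cases, fat body markers in 3 of 10 and 5 of 10 and muscle markers in 5 of 12 and 6 of 12, with all arrays and without mutant 3. The lipid transfer protein Mtp of the fat body list read 4.89, 9.88 and 11.73 on the controls and 5.10 to 5.69 on the mutants. The muscle LIM protein Mlp84B read 6.02 to 6.70 on the controls and 9.33, 9.40 and 6.05 on the mutants.

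The difference between the effect of parkin loss in dopaminergic neurons and that in cholinergic neurons was tested in the same fit. No probe set passed an adjusted p of 0.05 (0.00%), with or without mutant 3; at an unadjusted p under 0.05, limma called 645 (5.18%) with all arrays, 383 lower (3.07%) and 262 higher (2.10%), and 527 (4.23%) without mutant 3, 254 lower (2.04%) and 273 higher (2.19%). The smallest adjusted p was 0.326 with all arrays and 0.473 without mutant 3. Leaving out mutant 2 in place of mutant 3 gave 3 calls and leaving out cholinergic mutant 1 gave 1. The C-type lectin gene rgn read 10.73, 11.28 and 9.04 on the dopaminergic controls and 6.76, 8.32 and 7.02 on the dopaminergic mutants. In cholinergic neurons it read 6.05, 6.10 and 6.99 on the controls and 10.43, 10.37 and 10.26 on the mutants. The effects thus had opposite signs, -2.98 (-2.81 without mutant 3) and 3.98, and differed by -6.96 ± 1.09 (limma adjusted p = 0.326), or by -6.78 ± 1.14 without mutant 3 (adjusted p = 0.473). CG7058 had effects of -3.17 (-2.95 without mutant 3) and 5.09, and Oct-TyrR of -2.74 (-2.95 without mutant 3) and 1.59. For other leading genes the size came from the cholinergic side: E(spl)m5-HLH, a Notch target, differed by 0.22 (0.10 without mutant 3) in dopaminergic neurons and by -4.06 in cholinergic neurons, fs(1)K10 by 1.23 (1.19 without mutant 3) and -5.86, and CG32246 by 0.54 (0.43 without mutant 3) and 4.75. The membrane tethering subunit Vps11 was lower in both, with differences of -2.07 (-2.0 without mutant 3) and -5.84.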

How the data were processed

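The log2 values are used as the authors deposited them in the series' value table; how the array scans were turned into these values, normalization included, is not given in the sources used here, and no scanner files were used. The table held 18952 probe sets, of which 183 control probe sets were left out. The platform annotation gave 1 symbol for 13647 probe sets, several for 402 and none for 4720; 13544 of the single symbols matched the RefSeq gene table. A probe set was tested if on 3 or more of the 12 arrays it reached that array's median (12460 probe sets).

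A model with 1 mean per group was fitted to all 12 arrays with limma 3.58.1 (lmFit, then eBayes with a trend) in R 4.3.3. Tests were 2-sided, with Benjamini-Hochberg adjustment over all tested probe sets and a threshold of 0.05. The difference of the effects in dopaminergic and cholinergic neurons was a contrast of the same fit. Each contrast was also fitted without mutant 3 (title code F6). The number of arrays limits the precision.

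Named genes were up to 10 per direction with non-overlapping groups and the smallest p (none passed the threshold), with and without mutant 3, up to 4 members of each gene list (2 without mutant 3), 5 per direction for the difference of the effects, and a fixed set of markers. The members and lists were chosen with earlier results of these data known. No sequences or coordinates are given. Alternatives covered normalization, the filter on dim probe sets, the variance model, array weights, the title code letter and the leaving out of each array.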

Additional observations from a re-analysis of the deposited data

How the results depend on the processing

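The count of probe sets past an adjusted p of 0.05 was 0 in the main comparison and stayed 0 without mutant 3, with the 6 dopaminergic arrays alone (and 5 without mutant 3), after quantile normalization, with array medians centred, with a filter at the 65th percentile, with no trend, with the robust fit and at an adjusted p under 0.1. It was 1 with no filter on dim probe sets (a probe set with no single symbol) and 524 (252 lower, 272 higher) with array weights, which gave mutants 1, 2 and 3 weights of 4.56, 0.28 and 0.41, so that this fit rests largely on mutant 1. Leaving out 1 dopaminergic array at a time gave 0 to 74, with 74 without mutant 2, 2 without control 3 and 1 without control 1. For the difference between neuron types the count was 0 to 3 over single arrays left out, 3 without dopaminergic mutant 2 and 1 (CG32243) without cholinergic mutant 1, and 0 in every other alternative run.

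The title code letter as a replicate block gave 0 calls in both comparisons (548 and 569 at an unadjusted p under 0.05); mutant 3 is the only array with its letter, so the block leaves it out of the contrast. For arrays of different groups with the same letter, the correlation of deviations from the group means was -0.04 to 0.17 over 15 pairs (median 0.019). Over 39 pairs with different letters it was -0.23 to 0.23 (median -0.00095). Each cholinergic group holds arrays that share a letter, so taking out group means removes part of any shared deviation. The check therefore cannot decide whether the letters pair the samples, and the main fit uses no pairing.

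Of 1966 values of the 116 named probe set differences under 17 alternatives, 1873 kept sign and side of the threshold, 75 passed it (62 of them with array weights and 12 without mutant 2) and 18 changed sign, in 6 genes. Alternatives that change only the filter, the variance model, the threshold or the use of cholinergic arrays leave each difference as it was. Its sign could not change there. Many of these probe sets were also picked by small p or by non-overlap, so the 1873 do not measure how robust the differences are. The first Vmat probe set gave 0.039 and DAT 0.13 with 5 dopaminergic arrays, and 0.80 and 0.63 with the block. elav gave 0.93 with 5 arrays, 0.32 with array weights and 1.23 with the block, nSyb -0.041 with array medians centred, and with array weights fs(1)K10 gave -0.47 and VGAT -0.81. Over single arrays left out, the first Vmat probe set ranged from -3.82 to 0.039, DAT from -2.83 to 0.13, elav from -1.88 to 0.93, nSyb from -0.10 to 0.38 and VGAT from -1.16 (without mutant 2) to 1.58. The cause of these changes was not tested.

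Centring the array medians moved the median difference of all tested probe sets from 0.18 to 0.04. It turned the medians of the lists of secretory, autophagy and splicing genes below 0, to -0.11, -0.13 and -0.12. Quantile normalization turned the same lists below 0 and the lysosome (0.02) and proteasome (0.14) lists above it. Of 43 list medians, 13 moved by more than the spread between arrays when mutant 3 was left out. That spread includes mutant 3 itself, so the count can understate how far the medians depend on this array. The median difference of the activity and dissociation list went from -1.71 to -0.22 without mutant 3. The median level of that list was 5.43 on mutant 3, against 8.52 and 10.07 on the other mutants. The median difference of the endosomal list stayed at -0.32, while the median over all genes moved from 0.17 to -0.02. The 2 code pairs did not show a shift of this list, with medians of 0.06 in the D pair and -0.05 in the E pair.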
